A study of Mus musculus with 28 samples.

Results

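Distal chromosome 2 of the mouse was examined through 257 array rows out of 65956 tested. The rows carry the identifiers TC0200002600.mm.1 to TC0200002760.mm.1 and TC0200005260.mm.1 to TC0200005360.mm.1, with 1 gene left out. The 2 identifier ranges were chosen because many of their rows were lower in Rbm5 knockout, so every genotype difference below is a description of what chose the rows. Calls and p-values given for genotype differences are part of that description and are not read as tests. An identifier stands for a transcript cluster, a group of probes summarised together. The annotation listed no gene for 140 of the rows, 1 gene for 95 and several genes for 22.

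The study measured gene expression in cortical tissue of 28 mice aged 12 to 15 weeks, of both sexes, on the MTA 1.0 array. Wild type (WT) mice and mice labelled knockout (KO) for Rbm5, an RNA-binding protein that regulates splicing, formed 4 groups of 7: sham and CCI animals of each genotype. CCI is controlled cortical impact, a mechanical brain injury given here at 6 m/s and 1.2 mm depth after a craniotomy over the left parietal cortex. Sham mice had anaesthesia and no craniotomy, and tissue was taken 48 h later after perfusion, so the craniotomy and the impact cannot be told apart. The labels give neither the strain, nor the construction of the knockout allele, nor whether the animals were littermates, so Rbm5 and any other difference between the colonies cannot be told apart. The Rbm5 row, the check of the genotype labels, was at or above 10.59 on every wild type array and at or below 9.84 on every knockout array. Signal remained in knockout, with means of 9.76 after sham and 9.75 after CCI (difference -0.97). No array had a median over all tested rows above 5.9. In pieces of tissue, fewer cells of a type and less RNA per cell cannot be told apart either.

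The end of mouse chromosome 2 holds a large, recently duplicated family of genes for KRAB zinc finger proteins. These proteins bind DNA through arrays of C2H2 zinc fingers, often in transposable elements, and the KRAB domain recruits the corepressor Trim28, which brings the histone methyltransferase Setdb1 and silences the bound chromatin. Many copies are near-identical predicted genes (Gm names) or pseudogenes, so a probe can match several of them.

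The rows lower in knockout were nearly all in 2 stretches of neighbouring identifiers, TC0200002712.mm.1 to TC0200002756.mm.1 and TC0200005318.mm.1 to TC0200005360.mm.1. They hold 86 rows, list genes such as Zfp965, Zfp966, Zfp967, Zfp970 and Zfp971 with many Gm copies, and are called the Zfp stretches below. The limits of the stretches were set after the values were seen. Of 7 rows of the stretches that list 1 gene with a RefSeq promoter, all 7 were plus strand in the first range or minus strand in the second. Only Gm14393 came from the second range. The 2 stretches may thus be the 2 strands of the same region, and they are not read as separate places. The other 171 rows come from neighbouring single-copy genes such as Ptpn1, Ctsz, Aurka, Gnas and Bmp7, and from unnamed transcripts.

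Promoters show how alike the copies are. Of 39 genes named for the Zfp stretches, 21 had a readable promoter (250 bases before to 50 after the start) in RefSeq, build GRCm38.p6. A run of 54 bases, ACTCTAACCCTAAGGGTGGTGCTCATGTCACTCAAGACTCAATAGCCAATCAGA, was identical in 19 of the 21 (90.5%). The run was picked because most of these promoters share it, so nothing is read from its share among them. On either strand the run occurred in 30 of all 32851 promoters of the same length (0.0913%), from 26 genes. The 7 of these genes that no row of the stretches lists are also on chromosome 2. Both genes without the run, Gm14444 and Gm14393, were among those lower in knockout, as was 2210418O10Rik, which holds it. The Gm14444 window holds letters of a KRAB-box coding exon and may not be a promoter. It is counted among the 21 but is not shown or compared. Shown are 4 promoters, with the shared run in capitals, to let the copies be read against each other: Gm14393, without the run (chr2:175067720-175068019 (-)), and 3 that hold it (2210418O10Rik, chr2:176226315-176226614 (+), Gm14295, chr2:176798350-176798649 (+), and Zfp971, chr2:178023034-178023333 (+)).
Gm14393: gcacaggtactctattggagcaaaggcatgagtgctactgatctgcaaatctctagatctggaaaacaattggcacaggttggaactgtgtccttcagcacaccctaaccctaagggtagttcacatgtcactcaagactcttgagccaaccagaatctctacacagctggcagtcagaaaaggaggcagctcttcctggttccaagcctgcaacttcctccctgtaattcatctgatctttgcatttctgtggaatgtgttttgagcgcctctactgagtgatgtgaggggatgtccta
2210418O10Rik: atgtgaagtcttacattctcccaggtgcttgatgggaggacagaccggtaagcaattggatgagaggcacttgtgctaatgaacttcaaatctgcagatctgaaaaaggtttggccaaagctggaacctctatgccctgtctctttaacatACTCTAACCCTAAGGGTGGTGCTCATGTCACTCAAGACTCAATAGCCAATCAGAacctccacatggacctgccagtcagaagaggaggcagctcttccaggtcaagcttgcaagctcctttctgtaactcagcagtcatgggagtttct
Gm14295: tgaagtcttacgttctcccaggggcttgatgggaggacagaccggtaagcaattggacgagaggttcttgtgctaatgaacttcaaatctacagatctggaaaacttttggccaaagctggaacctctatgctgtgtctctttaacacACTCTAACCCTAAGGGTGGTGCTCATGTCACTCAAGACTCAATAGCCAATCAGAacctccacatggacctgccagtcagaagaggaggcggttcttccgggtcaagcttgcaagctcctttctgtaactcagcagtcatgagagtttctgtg
Zfp971: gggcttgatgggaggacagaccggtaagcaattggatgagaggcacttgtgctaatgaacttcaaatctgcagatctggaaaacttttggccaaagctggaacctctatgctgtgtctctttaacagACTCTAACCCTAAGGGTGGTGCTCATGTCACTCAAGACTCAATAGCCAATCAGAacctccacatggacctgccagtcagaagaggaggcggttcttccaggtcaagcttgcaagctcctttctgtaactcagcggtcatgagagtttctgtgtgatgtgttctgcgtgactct

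Set base by base with the shared run in register, the promoters of Gm14295 and Zfp971 were 97.5% identical over 279 bases. Those of 2210418O10Rik and Gm14295 were 94.6% identical over 297 bases, and those of 2210418O10Rik and Zfp971 96.0% over 276. The nearest stretch of the Gm14393 promoter matched 46 of the 54 bases. Among rows listing 1 gene, the genotype difference was -0.26 for Gm14393, at a mean log2 signal of 13.40, and between -0.15 and -0.07 for the 5 genes that hold the run, at signals between 11.11 and 15.07. With 1 gene lacking the run, nothing is read from this. The run is a description of the letters, not a site.

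Of the 257 rows, limma called 46 lower in knockout over both procedures and 0 higher, at a Benjamini-Hochberg adjusted p under 0.05 over all tested rows. Before adjustment 77 of them were below 0.05, beside 12.8% of all tested rows. Over all tested rows 1.8% were called lower, 1.36% higher and 3.16% in either direction. Within the Zfp stretches 45 of 86 rows were called lower, and outside them 1 of 171, the unnamed TC0200002618.mm.1 at a log2 difference of -0.24 and a mean signal of 5.57. The median genotype difference was -0.16 in the stretches and 0.0021 outside them, beside -0.001 over all tested rows. Because the ranges were chosen on this difference, nothing is read from these counts.

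**Figure D1:**
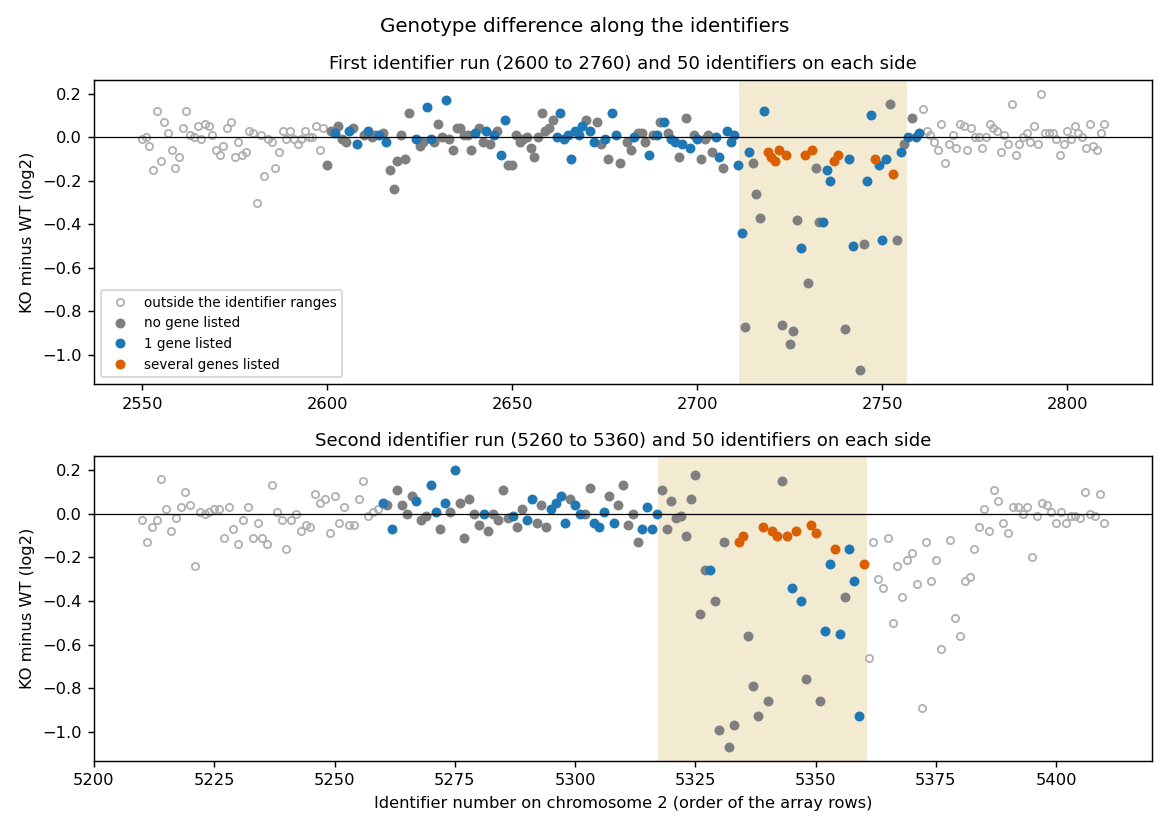
Genotype difference (KO minus WT, log2, over both procedures; vertical axis) of each row in the order of its identifier (horizontal axis), for both identifier ranges and 50 identifiers on each side, with shading over the Zfp stretches. Rows before the shading, and after it in the upper panel, lie between -0.30 and 0.20, while rows just after it in the lower panel reach -0.89. Within it, most rows listing several genes lie just below 0, and rows with no gene or 1 gene reach -1.07.

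The lower rows did not end with the second identifier range. Over the 50 identifiers after each range, 16 of 99 rows (16.2%) were called lower, with a median of -0.013. All 16 lay among the 22 rows from the end of the second range to Zfp931 (with the same gene left out), a limit set after the values were seen, where the median was -0.31. They include the unnamed TC0200005372.mm.1 at -0.89 and TC0200005361.mm.1 at -0.66, and the predicted genes Gm14404 at -0.50, Gm14428 at -0.48, Gm14412 at -0.34 and Gm14406 at -0.32. Zfp931, the last of them, was at -0.16. The next named rows, Sycp2 and Ppp1r3d, were at 0.02 and -0.08. None of the 100 rows before the ranges was called, and of the other 5211 rows of chromosome 2, 98 (1.88%) were called lower.

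In 17 rows, all in the Zfp stretches, every one of the 14 knockout arrays lay below every one of the 14 wild type arrays, which held for 47 of all tested rows (0.0713%). Of the 17, 15 had no gene listed, and the others were Gm14415 and Gm14408. The widest separation was in unnamed rows.

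TC0200005332.mm.1 had log2 signals with lowest, median and highest values of 9.03, 9.26 and 9.5 in WT sham and 8.76, 9.19 and 9.34 in WT CCI. In KO sham they were 7.83, 8.10 and 8.32, and in KO CCI 8.03, 8.15 and 8.36. All knockout arrays were low and the genotypes did not overlap, with a gap of 0.40 between the lowest wild type and the highest knockout array. The difference was -1.07 over both procedures (SE 0.060, n = 14 per genotype), a 2.1-fold lower signal, with -1.18 after sham and -0.97 after CCI.

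TC0200002744.mm.1, from the other identifier range, lay at 10.42, 10.48 and 10.68 in WT sham and 10.20, 10.53 and 10.83 in WT CCI. It lay at 9.04, 9.55 and 9.74 in KO sham and 9.28, 9.35 and 9.55 in KO CCI. Again every knockout array was below every wild type array, by at least 0.46, and the difference was -1.07 (SE 0.061). After sham it was -1.03 and after CCI -1.12.

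TC0200005330.mm.1 ranged from 10.51 to 11.19 over the wild type arrays and from 9.57 to 10.04 over the knockout arrays, a difference of -0.99 (SE 0.059). TC0200005333.mm.1 ranged from 10.42 to 10.97 and from 9.48 to 9.89, a difference of -0.97 (SE 0.048) with a gap of 0.53 between the genotypes. These 2 rows and TC0200005332.mm.1 are near neighbours by identifier. The remaining unnamed rows without overlap had differences from -0.95 (TC0200002725.mm.1) to -0.56 (TC0200005336.mm.1).

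Rows can share probes. TC0200002723.mm.1, TC0200005340.mm.1 and TC0200005351.mm.1 held identical values on all 28 arrays (difference -0.86, SE 0.077), as did TC0200002738.mm.1 and TC0200005341.mm.1, which list Zfp967, Zfp966 and Zfp971 (-0.08). The 257 rows therefore hold 254 distinct profiles. The counts in the text take every row, so a repeated profile is counted more than once.

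Among named rows Gm14415, a predicted gene model, stood lowest. Its lowest, median and highest log2 signals were 7.38, 7.87 and 8.11 in WT sham and 7.57, 7.73 and 8.05 in WT CCI, 6.70, 6.76 and 7.08 in KO sham and 6.09, 7.05 and 7.22 in KO CCI. The genotypes did not overlap, with a gap of 0.16. The difference was -0.93 (SE 0.092), or 1.90-fold lower.

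Gm14408, a transcript of the miscellaneous RNA class in RefSeq, ranged from 10.05 to 10.38 in WT sham and 9.87 to 10.46 in WT CCI. Its knockout arrays ranged from 9.58 to 9.87 after sham and 9.49 to 9.80 after CCI. The genotypes nearly touched, since the lowest wild type and highest knockout arrays were equal at 2 decimals. Its difference was -0.50 (SE 0.057). Gm14444, annotated as protein coding, ranged from 9.02 to 9.26 in WT sham and 8.65 to 9.16 in WT CCI, and over the knockout arrays from 8.51 to 8.77 after sham and 8.22 to 8.72 after CCI, a difference of -0.44 (SE 0.053). Within each procedure Gm14444 separated the genotypes after sham, and after CCI the highest knockout array lay above the lowest wild type array.

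**Figure D2:**
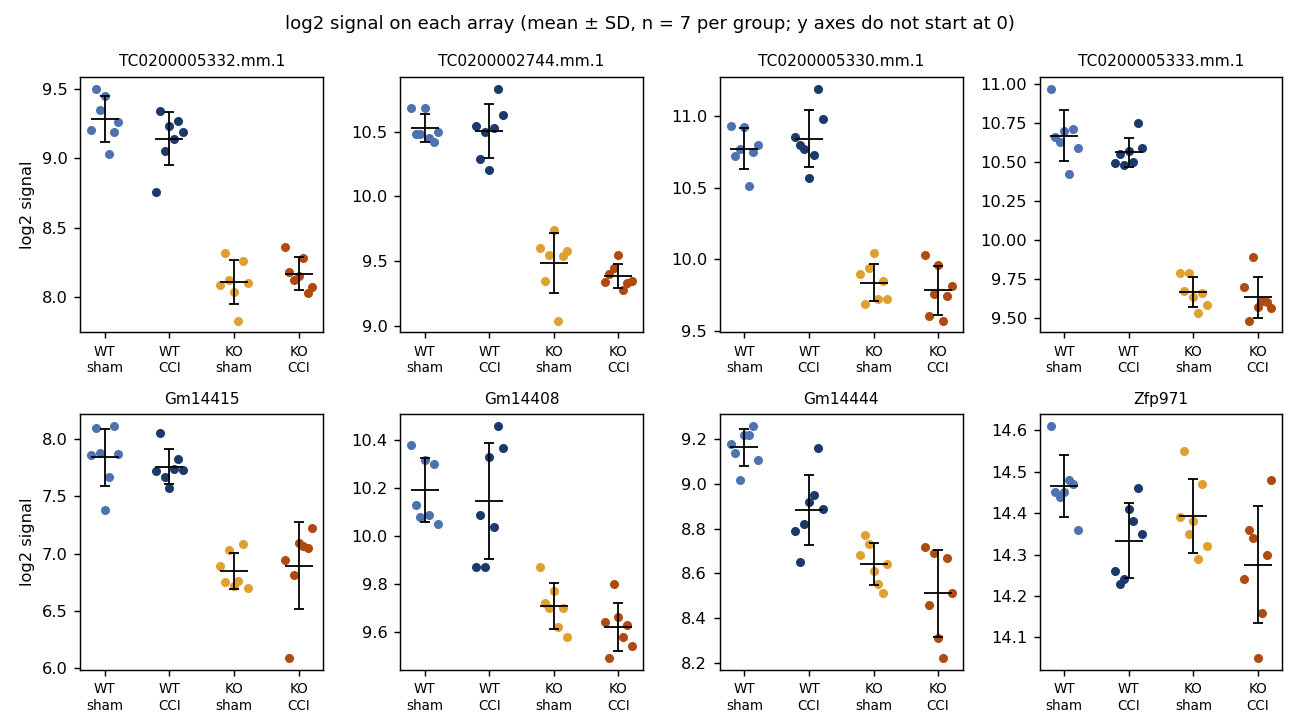
log2 signal (vertical axes, not starting at 0) on each array of the 4 groups (horizontal axes) for 8 rows of the Zfp stretches, with points for arrays and bars for mean ± SD (n = 7). The 4 unnamed rows and Gm14415 show no overlap between genotypes, Gm14408 nearly touches, Gm14444 overlaps after injury, and Zfp971 overlaps in all groups.

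Pseudogenes of the family were next. Gm14417 differed by -0.55 (SE 0.081), Gm14390 by -0.54 (SE 0.068), Gm2020 by -0.51 (SE 0.093) and Gm14324 by -0.47 (SE 0.070), and the genotypes overlapped in each. The long noncoding RNAs Gm11009 and Gm16357 were at -0.40 and -0.34. Other named rows were Gm6182 at -0.39, Gm14407 at -0.31, the protein-coding Gm14393 at -0.26, the 2 rows of the transcribed pseudogene Gm14405 at -0.23 and -0.20, and 2210418O10Rik at -0.15. The call of the Gm14405 row at -0.20 was lost without any one of 9 arrays (limma adjusted p up to 0.0645): replicate 1 of WT sham, 16 and 34 of WT CCI, 11, 12, 31 and 33 of KO sham, and 24 and 40 of KO CCI.

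Named rows on the other side of the threshold were Gm14401 at -0.20 and Gm14421 at -0.16, and outside the stretches Tshz2 at 0.17 and Gm14250 at 0.14. Zfp971 was at -0.07 and Gm14295 at -0.10, and their groups overlapped throughout. The smallest differences among called rows were -0.13 for TC0200005331.mm.1, -0.13 for a row listing Gm14391 and Gm6710, and -0.15 for 2210418O10Rik. The largest among rows not called were -0.26 for TC0200002716.mm.1, 0.20 for Gm14303 and -0.20 for Gm14401. The pseudogene Gm14303, outside the stretches, was the 1 row called higher after sham (log2 difference 0.41, beside 0.508% of all rows called higher), and that call was lost without any one of 18 arrays. With 1 array left out at a time, it was kept when that array was replicate 25 of WT sham, 14, 34, 35 or 36 of WT CCI, 9 or 10 of KO sham, or 22, 40 or 41 of KO CCI.

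Within the Zfp stretches the size of the difference moved with the annotation and with the signal. Of 40 rows with no gene, 26 were called lower, with a median difference of -0.40 and a median signal of 9.37. Of 24 rows with 1 gene, 15 were called lower, with -0.24 and 11.13. Of 22 rows listing several genes, 4 were called lower, with -0.09 and 14.14.

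The same split appears by signal alone. Of 51 rows at a mean log2 signal of 12 or below, 37 were called lower and the median was -0.44, and of 35 brighter rows 8 were called and the median was -0.10. That bound was chosen after the values were seen. All 22 rows that list several genes nevertheless had a fitted value below 0, from -0.23 (a row listing Gm14410) to -0.05. In the second stretch, 8 rows next to Prelid3b had mean signals below the lowest array median of 5.79, and none of them was called. Annotation and signal moved together, and the part of each in the size of the difference was not tested.

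**Figure D3:**
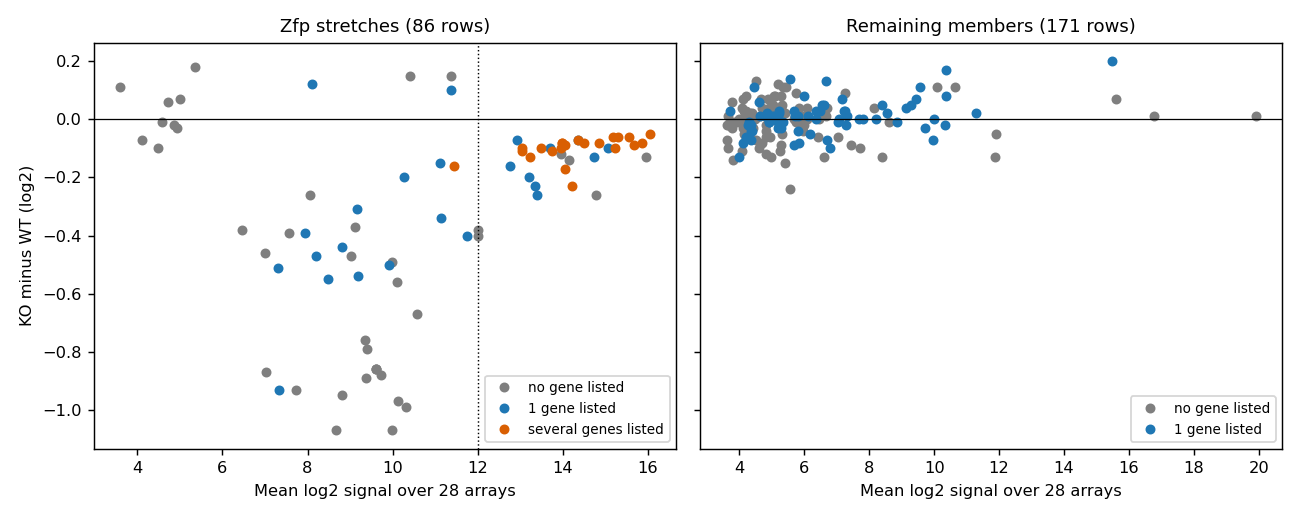
Mean log2 signal over 28 arrays (horizontal axes) against the genotype difference (KO minus WT, log2; vertical axis) for rows of the Zfp stretches (left, dotted line at 12) and for the remaining members (right). Differences below -0.5 occur only at signals under 12 in the left panel, and the right panel stays within -0.24 and 0.20.

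The difference was present under both procedures. After sham 34 rows were called lower (beside 0.776% of all rows lower and 1.28% in either direction) and after CCI 31 (beside 0.428% and 0.653%). Of these, 29 rows were in both lists, 29 of 34 and 29 of 31. The comparisons after sham and after CCI use different animals, but both enter the difference that chose the rows. Their overlap is therefore a description and not a replication. The title numbers of the arrays fall into runs of 1 to 24 and 25 to 42, which the labels do not call batches. All 45 called rows of the stretches lay below 0 within each run, with a median of -0.44 in titles 1 to 24 and -0.56 in titles 25 to 42. These rows were called on the same arrays, so their sign within a run was nearly fixed in advance and nothing is read from it. In the runs alone, which hold fewer arrays, the calls fell to 33 and 21, and the cause was not tested.

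In 8 arrays the mean of striatum or choroid plexus markers lay more than 0.9 log2 units above the median array: 4 injured wild type arrays (replicates 13, 14, 16 and 35), 3 injured knockout arrays (22, 23 and 40) and replicate 25 of WT sham. Without them 36 rows were called lower over both procedures, 37 after sham and 14 after CCI. Of 11 cortex neuron markers, which were well above the array medians, Neurod6 and Fezf2 were higher in knockout (0.35 and 0.33), and of 5 endothelial markers Cdh5 and Pecam1 were lower (-0.32 and -0.21). None of the measured astrocyte, microglia, oligodendrocyte, striatum or choroid plexus markers was called between genotypes over both procedures. Group means of the neuron list were 12.72 and 12.40 in wild type after sham and CCI and 12.81 and 12.41 in knockout. In the same order those of the endothelial list were 8.98, 9.42, 8.89 and 9.13. Those of the astrocyte list were 8.8, 10.18, 9.19 and 10.13, so that after sham the knockout mean was the higher. Those of the microglia list were 7.13, 7.88, 7.25 and 7.76, and of the oligodendrocyte list 10.66, 11.34, 10.94 and 10.93. The part of these lists in the differences was not tested.

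Zfp genes elsewhere in the genome gave a comparison by name. Of 364 Zfp genes with a row outside the ranges, 9 were called lower, Zfp931 among them, and 11 higher, with a median of 0.011. Each gene of this list, the partners below and the marker lists was read at its brightest row listing it alone. The partners through which KRAB proteins act were also measured. Of 21 measured partners, 0 were called between genotypes, 2 were below 0.05 before adjustment, and the values lay between -0.05 and 0.13, with Trim28 at -0.01 and Setdb1 at -0.03.

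The change with injury was not used in choosing the rows and was tested. In wild type, 21 of the 257 rows fell and 17 rose (limma, adjusted p under 0.05), 14.8% in all, beside 16.8% of all tested rows (7.96% lower, 8.86% higher). In knockout 18 fell and 15 rose, 12.8% beside 16.7% (8.27% lower, 8.43% higher). Both lists held 26 rows, 26 of 38 in wild type and 26 of 33 in knockout, all 26 with the same sign (16 lower, 10 higher). These shares lie near those over all rows, and no difference between them was tested. Quantile normalization gave 34 lower and 17 higher in wild type and 28 and 12 in knockout, beside 5516 and 5740 and 5350 and 5236 of all rows, so that the wild type share then lay above that of all rows. Centring each array on its median gave 24 and 15 in wild type and 27 and 5 in knockout. Over all rows centring gave 5610 lower and 5391 higher in wild type and 7576 and 4021 in knockout. The calls of all rows in knockout thus also moved to the lower side.

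Ctsz, which encodes the lysosomal protease cathepsin Z, changed most. Its lowest, median and highest log2 signals were 8.49, 8.90 and 8.99 in WT sham and 10.32, 11.32 and 11.91 in WT CCI. In knockout they were 8.57, 8.94 and 9.17 after sham and 10.18, 10.95 and 11.70 after CCI. Sham and injured arrays did not overlap in either genotype. The rise was 2.33 on the log2 scale in wild type (limma adjusted p = 3.84e-09) and 2.0 in knockout (adjusted p = 1.03e-07). Microglia express this gene. Of 5 microglia markers 3 rose in each genotype, and their mean went from 7.13 to 7.88 in wild type and from 7.25 to 7.76 in knockout, and their part in the rise of Ctsz was not tested.

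Cbln4, which encodes a secreted synaptic organiser, fell by 0.84 in wild type (limma adjusted p = 0.000774) and fell by 0.74 in knockout (adjusted p = 0.00299), from a median log2 signal of 7.05 to 6.19 and from 6.80 to 6.35. The wild type groups did not overlap, and in knockout they did. Its knockout call was lost without the 8 arrays with high regional markers (-0.49, adjusted p = 0.143), its wild type call in titles 1 to 24 alone (adjusted p = 0.076) and its knockout call in titles 25 to 42 alone (adjusted p = 0.0775). Dok5, an adaptor of receptor tyrosine kinases, fell by 0.44 and fell by 0.47 (limma adjusted p = 6.55e-05 and 3.82e-05), and was at -0.24 in wild type in titles 1 to 24 alone (adjusted p = 0.121). Phactr3, a regulator of protein phosphatase 1, fell by 0.35 and fell by 0.30, and its knockout call was lost in titles 25 to 42 alone. Of 11 cortex neuron markers, 7 fell with injury in wild type and 8 in knockout.

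Aurka, the mitotic kinase Aurora A, rose by 0.44 in wild type and 0.48 in knockout (limma adjusted p = 3.33e-05 and 1.34e-05). Ptpn1, a tyrosine phosphatase, rose by 0.36 and 0.28. Both knockout calls were lost in titles 25 to 42 alone (0.55 and 0.26, adjusted p = 0.0505 and 0.208). Zbp1, an innate sensor of nucleic acids, rose by 0.40 in wild type (adjusted p = 0.0265) and was at 0.31 in knockout (adjusted p = 0.0977). Its wild type call was lost in each title run alone and without WT sham replicate 4 or WT CCI replicate 14 or 15 (adjusted p up to 0.157). The unnamed TC0200002650.mm.1 fell by 0.52 and fell by 0.67, though its wild type call was lost in titles 1 to 24 alone and its knockout call in titles 25 to 42 alone.

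Of the pseudogene rows outside the stretches, 3 are described here. Gm14263 rose by 0.79 and 0.56 (limma adjusted p = 8.91e-07 and 0.000171), with the knockout call lost in titles 25 to 42 alone (0.47, adjusted p = 0.0948). Gm14303 rose by 0.76 in wild type (3.51e-06) and 0.34 in knockout (0.0259). In titles 25 to 42 alone its knockout change was 0.10 (adjusted p = 0.792). After quantile normalization it was 0.17 (0.317), and the call was also lost after centring, without the 8 arrays with high regional markers, and without any one of KO sham replicates 9, 10 and 11 and KO CCI replicates 22 and 42. Gm14270 rose by 0.44 in wild type (0.0019), a call lost in titles 25 to 42 alone (0.0826), and was at 0.18 in knockout (0.27). Such rows can take signal from the parent gene of the pseudogene or another copy, so their source is uncertain.

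Inside the Zfp stretches the injury calls are given by class of row, with no test between classes. Of 40 rows with no gene, 0 fell and 2 rose in each genotype (4 and 2 in wild type and 2 and 2 in knockout after quantile normalization). Of 24 rows with 1 gene, 3 fell and 3 rose in wild type and 0 and 3 in knockout (6 and 3, and 3 and 3, after quantile normalization). Of 22 rows listing several genes, 12 fell in wild type and 11 in knockout and 0 rose, with medians of -0.18 and -0.15, and 18 and 14 fell after quantile normalization and 12 and 12 after centring. Those called list Gm4724, Gm14308, Gm2026, Gm14434, Gm6710, Gm14391, Gm14410 and others. Among the 364 Zfp rows elsewhere 92 fell and 11 rose in wild type (median -0.085) and 81 fell and 11 rose in knockout (median -0.075), beside 7.96% and 8.27% of all rows that fell. Of 21 KRAB partners 2 fell and 4 rose in wild type, and 2 fell and 2 rose in knockout. Zfp445 and Tasor fell in wild type (-0.27 and -0.21) and in knockout (-0.27 and -0.22). Uhrf1, a DNA methylation factor, rose by 0.43 and 0.41, at a mean signal of 5.72, below the lowest array median. Resf1 rose by 0.23 and 0.15, and Dnmt1 rose by 0.21 in wild type and was at 0.11 in knockout, not called. Trim28 rose by 0.19 in wild type (limma adjusted p = 0.00564) and was at 0.13 in knockout (adjusted p = 0.0776).

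A few rows of the stretches rose. Gm14439 ranged from 12.61 to 12.90 in WT sham and 13.02 to 13.35 in WT CCI, and in knockout from 12.65 to 12.79 after sham and 12.98 to 13.14 after CCI. Injured and sham arrays did not overlap in either genotype, and it rose by 0.48 and 0.36 (limma adjusted p = 2.19e-08 and 4.29e-06). The pseudogene Gm14414 rose by 0.79 in wild type and 0.44 in knockout, and the unnamed TC0200005343.mm.1 by 0.81 and 0.41 and TC0200002752.mm.1 by 0.73 and 0.41. In knockout the calls of these 3 rows were lost without any one of 6, 9 and 8 arrays (adjusted p up to 0.107), among them for all 3 KO sham replicates 9, 10 and 11 and KO CCI replicates 22, 24 and 42. KO CCI replicates 21 and 23 also ended both unnamed calls and KO sham replicate 32 that of TC0200005343.mm.1. The 3 calls were also lost after centring on array medians, with only the arrays compared and without the 8 arrays with high regional markers. In titles 25 to 42 alone the knockout changes of Gm14414, TC0200005343.mm.1 and TC0200002752.mm.1 were 0.10, 0.05 and 0.09 (limma adjusted p = 0.832, 0.931 and 0.869), and the wild type call of TC0200002752.mm.1 was lost (0.66, adjusted p = 0.0648).

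Of the 45 rows lower in knockout, 6 (13.3%) were called for injury in wild type, 5 of them lower, and 3 (6.67%) in knockout, beside 16.8% and 16.7% of all tested rows. Gm14407 rose by 0.42 in wild type and 0.23 in knockout (limma adjusted p = 4.93e-05 and 0.0206), and the knockout call was lost in either title run alone, after centring, without the 8 arrays and without KO sham replicate 11 (adjusted p up to 0.283). Gm14444 and 2210418O10Rik fell by 0.28 and fell by 0.23 in wild type (adjusted p = 0.00729 and 0.00337). In titles 25 to 42 alone the wild type calls of these 2 rows and of Gm14407 were lost (adjusted p = 0.343, 0.359 and 0.0556). The 4 unnamed rows with the largest genotype differences had injury changes between -0.14 and 0.07 in either genotype, and none was called.

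**Figure D4:**
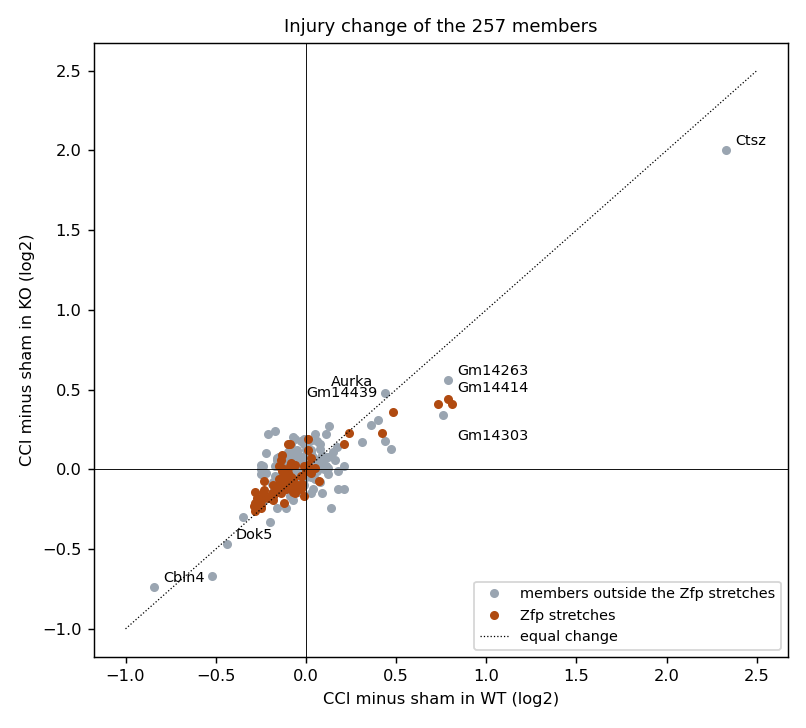
Injury change (CCI minus sham, log2) in WT (horizontal axis) against that in KO (vertical axis) for the 257 rows, with the line of equal change. Ctsz stands apart at 2.33 and 2.0, Cbln4 is lowest in both, and most rows of the Zfp stretches lie near 0 or slightly below.

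No row was called for a difference in its injury change between genotypes (limma interaction, 0 of 257 and 0 of 65956 rows), with 17 of the 257 below 0.05 before adjustment, beside 6.21% of all rows. The smallest p among them belonged to the unnamed TC0200002659.mm.1 (0.43, adjusted p = 0.723) and TC0200002637.mm.1 (0.41, adjusted p = 0.744), followed by 1700010B08Rik (0.26) and Gm14303 (-0.42), both at adjusted p = 0.779. No row was called between males and females by limma (0 of 257, beside 0.487% of all rows, 0.044% lower and 0.443% higher in males), and 9 of the 257 were below 0.05 before adjustment, beside 4.89% of all rows. The smallest p was that of Mocs3, a molybdenum cofactor enzyme, at -0.19 in males (adjusted p = 0.718).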

How the data were processed

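Per the labels' protocols, total RNA was extracted with Trizol from perfused cortical tissue and biotin-labelled cDNA from 100 ng was hybridised to MTA 1.0 arrays, 1 per animal. The deposited values are log2 signal, read from the values themselves, and the sources used here do not give how the authors summarised and normalized them. Array medians lay between 5.79 and 5.90. Of 72688 rows, 6732 controls were left out and 65956 were tested as deposited.

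Differences were fitted with limma 3.58.1 in R 4.3.3 (lmFit, eBayes) on the 4 group means plus sex, with Benjamini-Hochberg adjustment of p-values over all tested rows and a call at an adjusted p under 0.05. The model was tested on simulated data. Gene names came from the platform annotation, which can be old, updated through RefSeq gene identifiers. Rows listing several genes were given no single name. The sources used here do not name the array's genome build, so only the RefSeq promoters carry coordinates. Alternatives were no sex term, the title-number run as a covariate or alone, only the arrays compared, filters on dim or unannotated rows, quantile normalization, centring, a variance trend, array weights, a threshold of 0.01 and leaving out each array.

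The members and lists were chosen with earlier results of these data known. Named rows were the 20 named and 4 unnamed members with the largest genotype difference in either direction. To these were added up to 10 called members per other comparison by size (the 5 smallest p-values where none was called). Also named were the 3 called rows with the smallest and the 3 uncalled rows with the largest genotype difference. Other rows named here were chosen after their values were seen. Zinc finger genes were meant to be recognised from protein sequences, which were not used here, and Zfp symbols took their place. Arrays carry no depth, and their number limits the precision. The p-values measure the spread between these animals. Figures were drawn with Python, pandas and matplotlib.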

Additional observations from a re-analysis of the deposited data

Results flagged for a closer look

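Among 48 named rows, 192 groups of 7 arrays were examined for a single array far from the other 6 (Dixon's 95% limit), and 12 stood apart. Chance flags about 1 in 20 groups. In the Zfp stretches, Gm14415 was at 6.09 on KO CCI replicate 22 (next array 6.81), Gm14417 at 8.41 on WT sham replicate 25 (next 8.81), Gm2020 at 8.32 on WT CCI replicate 35 (next 7.60) and Gm14324 at 8.10 on WT sham replicate 27 (next 8.49). Gm14407 was at 9.76 on WT CCI replicate 36 (next 9.56), and TC0200005333.mm.1 at 10.75 on WT CCI replicate 35 (next 10.59). The rows of Gm14405 were at 13.72 and 10.65 on WT sham replicate 1 (next 13.50 and 10.44), and 1 of them at 10.48 on KO sham replicate 10 (next 10.24). Outside the stretches, Tubb1, a beta tubulin of platelets, was at 6.88 on WT sham replicate 1 (next 5.8), and the neighbouring unnamed TC0200002707.mm.1 was at 5.79 on the same array (next 3.74). TC0200002688.mm.1 was at 3.92 on KO sham replicate 9 (next 3.68).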

How the results depend on the processing

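Among the rows followed by name, none that was called either as reported or under an alternative changed its sign. Medians near 0 did: that of genotype differences outside the Zfp stretches went from 0.0021 to -7.6e-05 after centring, and that over all rows from -0.001 to 0.001 after quantile normalization. Over both procedures 46 rows lower became 21 in title numbers 25 to 42 alone. The 0 higher became 1 among brighter rows, 1 among rows with a listed gene and 2 after quantile normalization. The filter to rows with a listed gene leaves out the unnamed rows, so its lower calls are set beside those of named rows only. Over both procedures it gave 21 lower, where 15 rows with 1 gene and 4 with several were lower without it. After sham it gave 11, where 8 and 1 were lower without it, and after CCI 10, where 8 and 1 were. After sham 34 lower became 2 in titles 25 to 42. The 1 higher became 0 in each title run, with only the arrays compared, after centring and at a threshold of 0.01. It became 2 after quantile normalization. After CCI 31 lower became 15 in titles 1 to 24, 6 in titles 25 to 42 and 19 with only the arrays compared. They became 14 without the 8 arrays high in striatum or choroid plexus markers, an alternative chosen after seeing the data. For injury in wild type, 21 lower became 5 in titles 25 to 42 and 34 after quantile normalization, and 17 higher became 11 and 9 in the title runs. For injury in knockout, 18 lower became 1 in titles 25 to 42, 28 after quantile normalization and 9 without the 8 arrays, and 15 higher became 2 in titles 25 to 42, 9 with only the arrays compared, 5 after centring, 5 at a threshold of 0.01 and 7 without the 8 arrays. The title runs hold fewer arrays, and the cause of these moves, in the title runs or elsewhere, was not tested. Leaving out 1 array gave 42 to 49 lower and 0 to 1 higher over both procedures, 27 to 36 lower and 0 to 1 higher after sham, 25 to 33 lower after CCI, 20 to 29 lower and 14 to 17 higher for injury in wild type, and 14 to 19 lower and 5 to 18 higher in knockout. The last count was 5 without KO sham replicate 11, 8 without KO CCI replicate 23 and 9 without KO sham replicate 10. Of named rows called, 1 of 21 lost its call without some single array over both procedures, 3 of 13 after sham, 3 of 12 after CCI, 1 of 18 for injury in wild type and 5 of 14 in knockout. No paired analysis was possible because the replicate numbers in the titles are unique across groups. Signals below the lowest array median, in 113 of 257 rows (9 of 86 in the Zfp stretches), were not shown to be above background, which limits what those rows can show.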
